A study of Mus musculus with 8 samples.

Results

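The genes described here encode 3 hyperpolarization-activated cyclic nucleotide-gated (HCN) channels, Hcn2, Hcn3 and Hcn4, and their auxiliary subunit TRIP8b, whose gene is named Pex5l. They were chosen by gene name, as 4 of the 34620 names in the deposited table of normalized counts, and all 4 passed the filter on low values. The family's remaining channel was not analysed here, so every share or sum below is over the 3 HCN genes named. RNA was sequenced from the hippocampus and the pre-frontal cortex (PFC) of untreated C57Bl6 mice aged 7 to 9 weeks by the labels, with 4 libraries per region and the tissue of 2 mice pooled in each. The methods describe the mice as male, and give a different age range in the paragraph on RNA preparation. They count 8 mice in total, so the pools of both regions would come from the same mice. Xist, which is transcribed from the inactive X chromosome of females, and 4 Y-linked genes (Ddx3y, Eif2s3y, Kdm5d and Uty) had reads in all 8 libraries. The comparison asks in which region each gene had more RNA.

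HCN channels open when the membrane is hyperpolarized and pass an inward current of sodium and potassium ions, called Ih in neurons and the pacemaker current in the heart. Binding of cyclic AMP to the channel's cytoplasmic end eases opening, strongly in HCN2 and HCN4 and weakly in HCN3. TRIP8b is a cytoplasmic protein of neurons that binds HCN channels both at the cyclic nucleotide-binding domain and at the last residues of the C-terminal tail, and it alters how many channels reach the membrane and how they respond to cyclic AMP.

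The end of the coding sequence is shown for each channel because it encodes the tail that TRIP8b holds. The last 30 coding bases before the stop codon, from the GENCODE M1 transcripts on NCBIM37, are printed 5′ to 3′ with the final 9 bases in capitals.
Hcn2: tctgcgcgctcgcgcctctctTCCAACTTG
Hcn3: cccagaggtccccaaatttctGCCAACATG
Hcn4: ccagtacgctccaaactgccgTCTAATTTA
The 9 capital bases of Hcn2 and Hcn4 were equal at 6 positions and encoded the same 3 residues. Those of Hcn3 encoded 1 residue of 3 in common with Hcn2 and 1 of 3 in common with Hcn4, although 7 of its 9 bases were equal to those of Hcn2 and 4 to those of Hcn4. The pair with the same encoded end, Hcn2 and Hcn4, did not have the same regional values, as the read counts that follow show.

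Promoter sequence from RefSeq was at hand for 2 of the 4 genes, Hcn2 and Hcn4, and is shown because their RNA levels lay far apart. The 250 bases before the start of each gene are given on build GRCm38.p6, 5′ to 3′ on the plus strand, with each GC box (CCGCCC or its reverse complement GGGCGG, the motif bound by Sp1) in capitals.
Hcn2, chr10:79716384-79716633: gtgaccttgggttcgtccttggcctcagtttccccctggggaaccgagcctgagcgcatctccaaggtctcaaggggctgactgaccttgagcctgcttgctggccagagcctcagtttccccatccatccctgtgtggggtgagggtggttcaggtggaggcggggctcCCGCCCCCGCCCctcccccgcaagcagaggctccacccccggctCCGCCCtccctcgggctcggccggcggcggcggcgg
Hcn4, chr9:58822699-58822948: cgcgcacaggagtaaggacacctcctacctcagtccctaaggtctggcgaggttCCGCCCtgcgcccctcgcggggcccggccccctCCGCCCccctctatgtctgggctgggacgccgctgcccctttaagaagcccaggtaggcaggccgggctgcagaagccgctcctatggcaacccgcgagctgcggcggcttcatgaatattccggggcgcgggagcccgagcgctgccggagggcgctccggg
Both windows held the motif, 3 times in Hcn2 and 2 times in Hcn4, as did 32.7% of the 32851 RefSeq promoter windows of that length searched on both strands. Neither held a TATA box (TATAAA on either strand), which 12.4% of all windows did. The G and C content was 70.4% in Hcn2 and 71.2% in Hcn4 against a median of 52.4%, and Hcn4 had 25 CpG dinucleotides to 16 in Hcn2, against a median of 6. These are descriptions of letters, and no binding was measured.

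The values are read counts per gene that the authors divided by one size factor per library, here called normalized counts. The libraries held between 3164964 and 16636500 reads assigned to genes, so the 3 reads that a count of 0 still allows correspond to between 1.30 and 6.93 normalized counts. Over the 19789 genes tested, limma found 5.68% past an adjusted p of 0.05, with 2.55% higher in the hippocampus and 3.13% higher in the PFC. The libraries of the regions did not overlap in 11.8% of the genes tested. Of the 4 genes described here, 1 passed the threshold and 3 had regions that did not overlap. Nothing in the labels says which hippocampus and PFC libraries came from the same mice, and the regions were compared unpaired. In bulk tissue, fewer cells of a type and less RNA per cell cannot be told apart.

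Hcn2 is encoded on chromosome 10 (79179379 to 79198853, plus strand, NCBIM37; ENSMUSG00000020331.3) and forms the fast-opening, cyclic AMP-sensitive channel found widely in the brain. Its level did not differ detectably between the regions. Hippocampus replicates 1 to 4 had 107, 109.7, 87.2 and 104 normalized counts, and PFC replicates 1 to 4 had 93.8, 107, 63.0 and 124. The regions overlapped, with both the lowest and the highest value in the PFC. The mean was 102 ± 10.2 for the hippocampus, against 97.0 ± 25.9 for the PFC (SD, n = 4 each). The log2 fold change, hippocampus over PFC on the log2(normalized count + 1) scale, was 0.11 (SE 0.20, 95% interval -0.32 to 0.54; limma adjusted p = 0.87). These libraries leave room for a true difference in either direction inside that interval. Without PFC replicate 3, the lowest, the log2 fold change was -0.08.

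Hcn3 lies on chromosome 3 (88949996 to 88964118, minus strand, NCBIM37; ENSMUSG00000028051.4), and its channel responds least to cyclic AMP of those named here. It was higher in the PFC. Hippocampus replicates 1 to 4 had 64.0, 64.5, 57.2 and 67.0 normalized counts, and PFC replicates 1 to 4 had 81.5, 92.9, 104.6 and 163. The reads were 148, 67, 109 and 29 in hippocampus replicates 1 to 4, and 53, 74, 73 and 242 in PFC replicates 1 to 4. In normalized counts, all PFC libraries lay above all hippocampus libraries. The hippocampus libraries lay close together while PFC replicate 4 stood above the rest. The mean was 63.2 ± 4.17 for the hippocampus, against 110.4 ± 36.1 for the PFC (SD, n = 4 each), 1.75-fold higher in the PFC. The log2 fold change was -0.75 (SE 0.21, 95% interval -1.19 to -0.30) with a limma adjusted p of 0.048, and edgeR (adjusted p = 0.026) and DESeq2 (adjusted p = 0.0083) on the recovered reads also passed the threshold, as did 5.91% and 7.39% of all genes tested in those tools. The call was near the limit: it was lost in limma under TMM scaling (adjusted p = 0.052) and with no filter on low values (adjusted p = 0.071). It was also lost in limma with the replicate numbers as a block (adjusted p = 0.080). Leaving out 1 library gave adjusted p-values between 0.019 and 0.20 in limma, under 0.05 in 2 of 8 cases, without hippocampus replicate 2 or PFC replicate 1. Without PFC replicate 4 the log2 fold change was -0.54 (adjusted p = 0.20), and the direction held in all 8 cases.

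Hcn4 lies on chromosome 9 (58671319 to 58708762, plus strand, NCBIM37; ENSMUSG00000032338.8). It encodes the main pacemaker channel of the sinoatrial node, and in the brain it is best known from the thalamus and the medial habenula. It was the scarcest of the genes described, with 37 reads over the 4 hippocampus libraries and 89 over the 4 PFC libraries. Hippocampus replicates 1 to 4 had 10, 3, 20 and 4 reads, or 4.33, 2.89, 10.5 and 9.24 normalized counts. PFC replicates 1 to 4 had 8, 15, 12 and 54 reads, or 12.3, 18.8, 17.2 and 36.3 normalized counts. The regions did not overlap, although the 3 reads of hippocampus replicate 2 equal what a count of 0 allows, and PFC replicate 4 was again the highest library. The mean was 6.74 ± 3.70 for the hippocampus, against 21.2 ± 10.5 for the PFC (SD, n = 4 each), 3.14-fold higher in the PFC.

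The log2 fold change of Hcn4 was -1.55 (SE 0.45, 95% interval -2.51 to -0.59), and its limma adjusted p of 0.057 missed the threshold. The count tests on the same reads passed it, with a log2 fold change of -1.74 and an adjusted p of 0.033 in edgeR and -1.73 and 0.017 in DESeq2. In limma, leaving out PFC replicate 1 also passed (-1.76, adjusted p = 0.043), and leaving out PFC replicate 4 gave -1.26 (adjusted p = 0.25). Hcn4 had the largest fold change of the 4 genes and the widest interval.

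Pex5l lies on chromosome 3 (32848553 to 33042169, minus strand, NCBIM37; ENSMUSG00000027674.9) and has 8 transcripts in GENCODE M1. It was by far the most abundant of the genes described: its mean normalized count exceeded that of 97.1% of the genes tested, against 55.9% for Hcn2, 53.5% for Hcn3 and 30.2% for Hcn4. Hippocampus replicates 1 to 4 had 2185, 3047, 2248 and 2236 normalized counts, and PFC replicates 1 to 4 had 2178, 1802, 1903 and 1688. The regions did not overlap, but hippocampus replicate 1 and PFC replicate 1 were nearly equal, and hippocampus replicate 2 stood above the rest. The mean was 2429 ± 413 for the hippocampus, against 1893 ± 209 for the PFC (SD, n = 4 each), 1.28-fold higher in the hippocampus. The log2 fold change was 0.35 (SE 0.12, 95% interval 0.10 to 0.60), and it missed the threshold in limma (adjusted p = 0.11), edgeR (adjusted p = 0.090) and DESeq2 (adjusted p = 0.078). Without hippocampus replicate 2 it was 0.24 (limma adjusted p = 0.088).

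**Figure D1:**
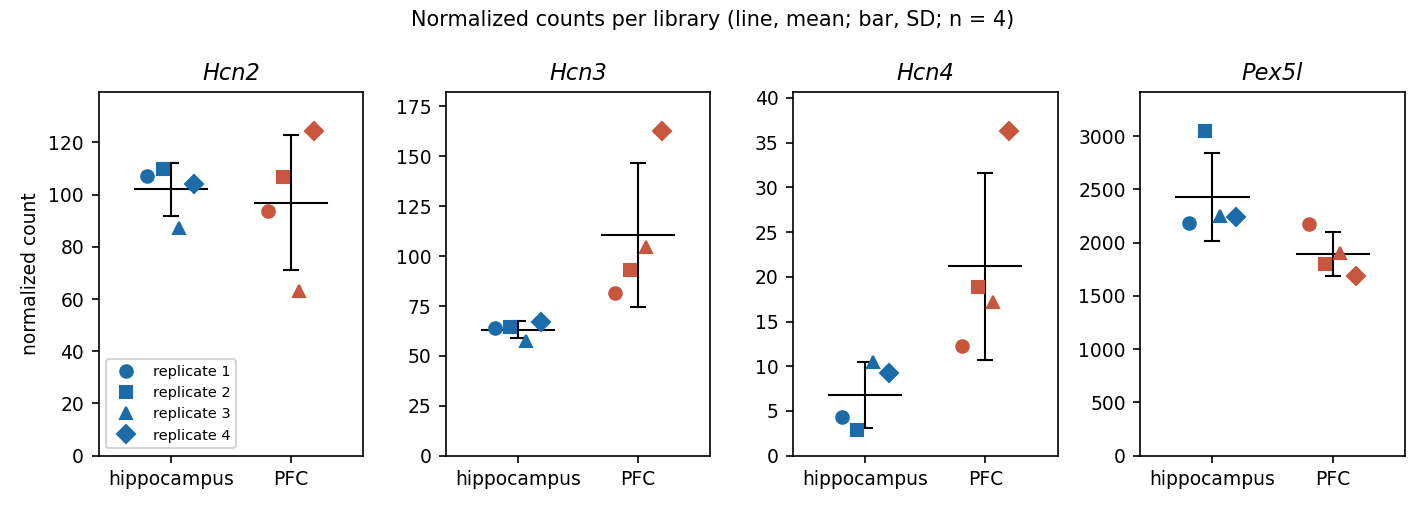
Normalized counts of Hcn2, Hcn3, Hcn4 and Pex5l in each library of the hippocampus and the PFC; each point is 1 library of 2 pooled mice, and the line and bar give the mean and SD of 4 libraries. The regions overlap for Hcn2, and PFC replicate 4 is the highest library for Hcn2 (124), Hcn3 (163) and Hcn4 (36.3) and the lowest for Pex5l (1688).

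**Figure D2:**
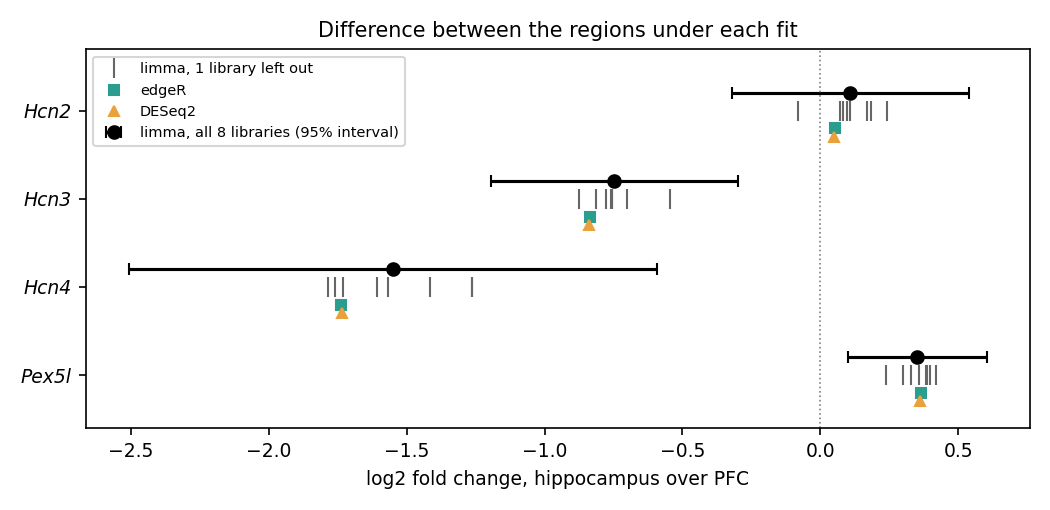
Log2 fold change, hippocampus over PFC, of the 4 genes in limma with its 95% interval, beside the values from edgeR and DESeq2 and those with 1 library left out. The intervals of Hcn3 and Hcn4 lie below 0, that of Hcn2 spans 0, and that of Pex5l lies above 0 although its adjusted p of 0.11 missed the threshold.

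Levels of different genes were compared per kilobase of exon, with 3.195 kb for Hcn2, 4.154 kb for Hcn3, 3.798 kb for Hcn4 and 5.039 kb for Pex5l. In the hippocampus the order of the levels was clear. Pex5l had 482 ± 82.0 normalized counts per kb, Hcn2 31.9 ± 3.19, Hcn3 15.2 ± 1.0 and Hcn4 1.77 ± 0.97 (SD, n = 4), and no neighbours in that order overlapped. In the PFC, Pex5l had 376 ± 41.6 normalized counts per kb, Hcn2 30.4 ± 8.10, Hcn3 26.6 ± 8.70 and Hcn4 5.57 ± 2.76. There the libraries of Hcn2 and Hcn3 overlapped, and these neighbours did not differ beyond their spread. The order of Hcn2 and Hcn3 in the PFC depended on the length used: per kilobase of coding sequence, Hcn3 stood at 47.2 and Hcn2 at 37.5.

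The make-up of the summed Hcn2, Hcn3 and Hcn4 transcripts differed between the regions, with a smaller share of Hcn2 and a larger share of Hcn3 in the PFC. The level of Hcn2 itself did not differ detectably, as given above, and its share also depends on the levels of Hcn3 and Hcn4. Hcn2 took 67.0%, 67.8%, 62.3% and 63.7% of the summed HCN level per kb in hippocampus replicates 1 to 4, and 56.2%, 55.0%, 39.9% and 44.4% in PFC replicates 1 to 4. Hcn3 took between 30.7% and 31.6% in hippocampus libraries, against 36.8% to 50.9% in PFC libraries, and for neither gene did the shares of the regions overlap. Hcn4 took 3.71% ± 2.22 of the sum in hippocampus libraries, against 8.61% ± 1.96 in PFC libraries (SD, n = 4), with overlap. The ratio of Hcn3 to Hcn2 per kb was 0.46, 0.45, 0.51 and 0.50 in hippocampus replicates 1 to 4, and 0.67, 0.67, 1.28 and 1.01 in PFC replicates 1 to 4. The hippocampus libraries had close ratios, whereas the PFC libraries fell into replicates 1 and 2 below and replicates 3 and 4 above. Some of these ratios rest on few reads. Hippocampus replicate 4 had 45 reads of Hcn2 and 29 of Hcn3, and PFC replicate 3 had 44 and 73. Ratios and shares of single libraries are therefore imprecise, and how closely the hippocampus libraries match cannot be judged from them. These shares rest on the same counts as the fold changes and were given no test of their own.

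Per kb, Pex5l RNA was far above the summed RNA of Hcn2, Hcn3 and Hcn4 in each library. The level of Pex5l per kb was 8.64, 11.9, 10.2 and 8.68 times the summed HCN level in hippocampus replicates 1 to 4, and 8.28, 5.89, 7.64 and 3.82 times in PFC replicates 1 to 4. The mean ratio was 9.86 ± 1.56 for the hippocampus, against 6.41 ± 2.00 for the PFC (SD, n = 4), and the regions did not overlap, by a narrow margin between hippocampus replicate 1 and PFC replicate 1. The summed HCN level itself overlapped, at 43.8 to 51.1 normalized counts per kb in hippocampus libraries against 49.4 to 87.7 in PFC libraries. Per kilobase of coding sequence it did not overlap, at 61.1 to 71.4 against 73.9 to 128.

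**Figure D3:**
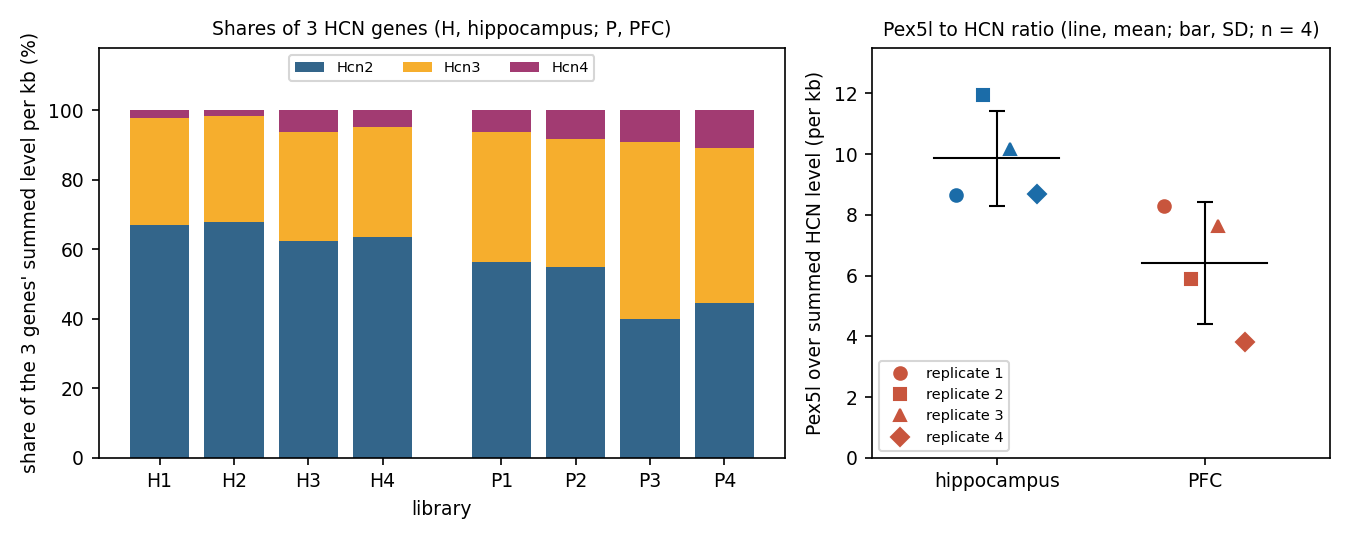
Shares of Hcn2, Hcn3 and Hcn4 in their summed level per kilobase of exon in each library, in percent, beside the ratio of Pex5l to that sum. Hcn2 lies between 62.3% and 67.8% in the hippocampus libraries and between 39.9% and 56.2% in the PFC libraries, and the ratio of Pex5l to the HCN sum is lowest in PFC replicate 4 (3.82).

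Neighbouring genes share exon bases with Hcn3 and Pex5l. Pklr, the red cell and liver form of pyruvate kinase, lies on the opposite strand and overlaps an Hcn3 exon by up to 711 bases, and 16.2% of the 75-base windows of Hcn3 transcripts were shared with it. Reads were counted without strand, so reads of the overlap cannot be told apart. The mean of Pklr over the 8 libraries was 0.544 normalized counts. How reads of the overlap were assigned depends on the HTSeq overlap mode, which is not given. If they were counted for neither gene, the level of Hcn3 per kb and its share would be too low, which was not tested. No 75-base window of Hcn2, Hcn4 or Pex5l transcripts was shared with another protein-coding gene. Pex5l shares 24 exon bases with 4930419G24Rik on the other strand, which had a mean of 53.4 normalized counts. Polrmt, the mitochondrial RNA polymerase, ends 15 bases from Hcn2 on the other strand and had 114. RefSeq lists the symbol Hcn4 as an older name of the Hcn3 gene and Hcn3 as an older name of the Hcn4 gene. The identities given here rest on the gene names, identifiers and chromosomes of GENCODE M1.

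Markers of the cell types in and around the dissected tissue differed between the same libraries. For the marker counts here and in the next paragraph, 3.13% of all genes tested passed toward the PFC and 2.55% toward the hippocampus. The striatal projection neuron list had 10 of 10 markers past the threshold toward the PFC in limma, with summed levels of 1371 to 1643 normalized counts per hippocampus library against 2743 to 5344 per PFC library. The highest sum was that of PFC replicate 4, also the highest library for Hcn2, Hcn3 and Hcn4 and the lowest for Pex5l. The upper cortical layer list had 7 of 10 past it toward the PFC, with sums of 4886 to 5666 against 10185 to 13302. Markers of CA pyramidal neurons (7 of 10 higher in the hippocampus, sums 7760 to 8509 against 3737 to 5557), dentate granule neurons (5 of 8, sums 4491 to 5569 against 1102 to 2710) and oligodendrocytes (10 of 10, sums 118187 to 127730 against 57428 to 83604) were on the other side, where Pex5l had its larger values. Of 8 astrocyte markers 1 was called, higher in the hippocampus, and their sums did not overlap (23635 to 25107 against 20138 to 21601). Within the PFC, replicates 1 and 2 had the larger sums of these hippocampal and oligodendrocyte markers, and replicates 3 and 4 the smaller.

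Choroid plexus markers were higher in the hippocampus in 8 of 10 cases, with sums of 3532 to 8028 against 574 to 3031. Markers of thalamic and habenular neurons, where Hcn4 is best known, were higher in the hippocampus for 2 of 10 genes tested and in the PFC for none, and their sums overlapped at 1332 to 1687 against 1462 to 1584. The sums of GABAergic interneuron markers overlapped (7233 to 9081 against 8871 to 10037), with 2 of 10 genes higher in the PFC. So did those of deep cortical layer markers (5133 to 5706 against 5519 to 5925; of 11 genes 2 passed toward the hippocampus, 4 toward the PFC) and olfactory bulb markers (240.3 to 522 against 517 to 600.5; 3 of 7 higher in the PFC). No marker tested was at 0 in all libraries. The part of these differences in the values of the HCN genes and Pex5l was not tested.

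Among 19 partners and regulators of HCN channels, 1 gene, Rab8b, passed the threshold, higher in the hippocampus, and none passed in the other direction. That share is near the 5.68% of all genes tested, so the count says nothing particular about the list. RAB8B is a small GTPase of membrane traffic, and TRIP8b was first named as its binding partner. Rab8b had 505, 450.3, 488 and 499 normalized counts in hippocampus replicates 1 to 4 and 363, 349, 344 and 299.9 in PFC replicates 1 to 4. The regions lay well apart. Its log2 fold change was 0.52 (SE 0.11; limma adjusted p = 0.0092), with 15 of the 19 log2 fold changes above 0 and a list median of 0.13 against 0.0038 over all genes tested. At an unadjusted p under 0.05 in limma, 6 of the 19 passed toward the hippocampus and 0 toward the PFC. Over all genes tested, 16.9% met that p in both directions together, and the share by direction is not given here. EdgeR and DESeq2 each called Rab8b alone.

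Besides Rab8b, the direct partners named from the list of partners and regulators did not pass the threshold. Kctd3, an accessory protein of HCN3, had a log2 fold change of 0.07 (adjusted p = 0.89). Kcne2, a small single-pass subunit that joins HCN channels in heterologous cells, had 15.6, 1.92, 12.6 and 6.93 normalized counts in hippocampus replicates 1 to 4, against 0, 3.77, 5.73 and 0 in PFC replicates 1 to 4, with 65 and 7 reads in all (log2 fold change 1.84, adjusted p = 0.19). Without hippocampus replicate 2 it reached 2.35 (adjusted p = 0.028). Kcne2 is also a choroid plexus marker, and hippocampus replicate 2 had the smallest choroid plexus sum of that region. Lrmp and Mrvi1, whose products alter the cyclic AMP response of HCN4, had log2 fold changes of 0.14 (adjusted p = 0.93) and -0.48 (adjusted p = 0.74), at means under 20 normalized counts.

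Related channels that carry a cyclic nucleotide-binding or homologous domain stood higher in the PFC for 6 of 12 genes tested, and for none in the hippocampus (median log2 fold change -0.76), where 3.13% of all genes tested were higher in the PFC. All 6 were voltage-gated potassium channels of the Kcnh family, whose domain resembles that of HCN channels but is not known for gating by cyclic nucleotides. The tested Cnga2, Cnga3, Cnga4 and Cngb1 had hippocampus means of 1.37, 1.09, 7.83 and 3.69 normalized counts. Their PFC means were 0.88, 1.33, 9.47 and 2.31. The means of Cnga2, Cnga3 and Cngb1 lie at or near what a count of 0 allows, so the lack of a call for these genes says little. Cnga4 had 42 reads over the hippocampus libraries and 38 over the PFC libraries, and its regions overlapped (log2 fold change -0.22, SE 0.44, limma adjusted p = 0.89). Kcnh4 had 12.6, 21.2, 14.2 and 11.6 normalized counts in hippocampus replicates 1 to 4, against 43.0, 41.4, 51.6 and 71.95 in PFC replicates 1 to 4 (log2 fold change -1.74, SE 0.29, limma adjusted p = 0.0017). Kcnh5 stood at 205 ± 39.4 in hippocampus libraries, against 595 ± 115 in PFC libraries (SD, n = 4 each; log2 fold change -1.53, limma adjusted p = 2.8e-05). For both genes all PFC libraries lay above all hippocampus libraries.

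Kcnh1 had 622 ± 53.1 normalized counts for the hippocampus, against 1211 ± 183 for the PFC (SD, n = 4 each; log2 fold change -0.95, limma adjusted p = 0.00013), and Kcnh7 had 1458 ± 129 and 2667 ± 254 (log2 fold change -0.87, limma adjusted p = 7.0e-05). Kcnh2 and Kcnh3 were the other calls. Of the 2 genes of this list that were not tested, Cnga1 was at 0 in all libraries and Cngb3 was below the filter. At an unadjusted p under 0.05 in limma, 7 of the 12 passed toward the PFC and 0 toward the hippocampus. Of all genes tested, 16.9% met that p in both directions together, and the share by direction is not given here. At the adjusted threshold, edgeR and DESeq2 called the same 6. Leaving out 1 library gave between 4 and 6 calls, with 4 without hippocampus replicate 3, PFC replicate 3 or PFC replicate 4.

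Enzymes that make or break down cyclic nucleotides, the ligands of HCN channels, moved in both directions. Of 29 genes tested, 6 passed the threshold toward the PFC and 3 toward the hippocampus (median log2 fold change -0.19), where 3.13% and 2.55% of all genes tested did. Gucy1a3, a subunit of the nitric oxide-sensitive guanylyl cyclase, had 503, 504, 458 and 501 normalized counts in hippocampus replicates 1 to 4, against 907, 959, 1282 and 1260.2 in PFC replicates 1 to 4 (log2 fold change -1.15, SE 0.12, limma adjusted p = 3.4e-05). Pde1b, a calmodulin-dependent phosphodiesterase, had 349 ± 21.8 and 560.3 ± 104.5 (SD, n = 4 each; log2 fold change -0.66, adjusted p = 0.0049). Adcy5, the adenylyl cyclase known for its high level in the striatum, had 724 ± 104 and 1116 ± 271 (log2 fold change -0.60, adjusted p = 0.021), highest in PFC replicate 4. Pde8a, a cyclic AMP phosphodiesterase, was higher in the hippocampus, at 108 ± 19.0 against 66.3 ± 9.97 (log2 fold change 0.69, adjusted p = 0.040), a call lost with no filter on low values (adjusted p = 0.053) and in 6 of 8 cases with 1 library left out. The count of 9 calls fell to between 2 and 4 without hippocampus replicate 1 (3), 3 (3) or 4 (3) or PFC replicate 2 (4), 3 (2) or 4 (2), and rose to 13 without hippocampus replicate 2. One of the calls, Pde10a, is also in the striatal marker list.

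Among 23 other channel genes of subthreshold currents, 6 passed the threshold toward the PFC and 2 toward the hippocampus (median log2 fold change -0.19), beside the same 3.13% and 2.55% of all genes tested. Dpp10, an auxiliary subunit of the A-type Kv4 potassium channels, had 422, 407, 374 and 480.5 normalized counts in hippocampus replicates 1 to 4, against 914, 969, 1140.1 and 1011 in PFC replicates 1 to 4 (log2 fold change -1.26, SE 0.11, limma adjusted p = 7.1e-06). Kcnk9, a leak potassium channel, had 93.6 ± 6.73 and 177 ± 31.7 (SD, n = 4 each; log2 fold change -0.90, adjusted p = 0.0030). Cacna1i, a T-type calcium channel (log2 fold change -0.67, adjusted p = 0.011), and Kcnip1, a calcium-binding partner of Kv4 channels (log2 fold change -0.64, adjusted p = 0.010), were also higher in the PFC. The 8 calls became 4 without PFC replicate 3 and 4 without PFC replicate 4, and 12 without hippocampus replicate 2.

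Pex5l takes its name from its likeness to Pex5, the receptor that carries proteins into peroxisomes, and the peroxins were listed for that reason. None of the 14 tested passed the threshold in limma, edgeR or DESeq2, and 1 (Pex7, a gene named after its value was seen) had an unadjusted p under 0.05 in limma. Of all genes tested, 5.68%, 5.91% and 7.39% passed in these tools, and 16.9% had such an unadjusted p. With 14 genes, these counts say nothing particular about the list. Pex5 itself had 208 ± 53.8 normalized counts for the hippocampus, against 238 ± 31.3 for the PFC (SD, n = 4 each), with overlap (log2 fold change -0.22, adjusted p = 0.60). The level of Pex5 per kb of exon was 52.8 in the hippocampus, against 482 for Pex5l.

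**Figure D4:**
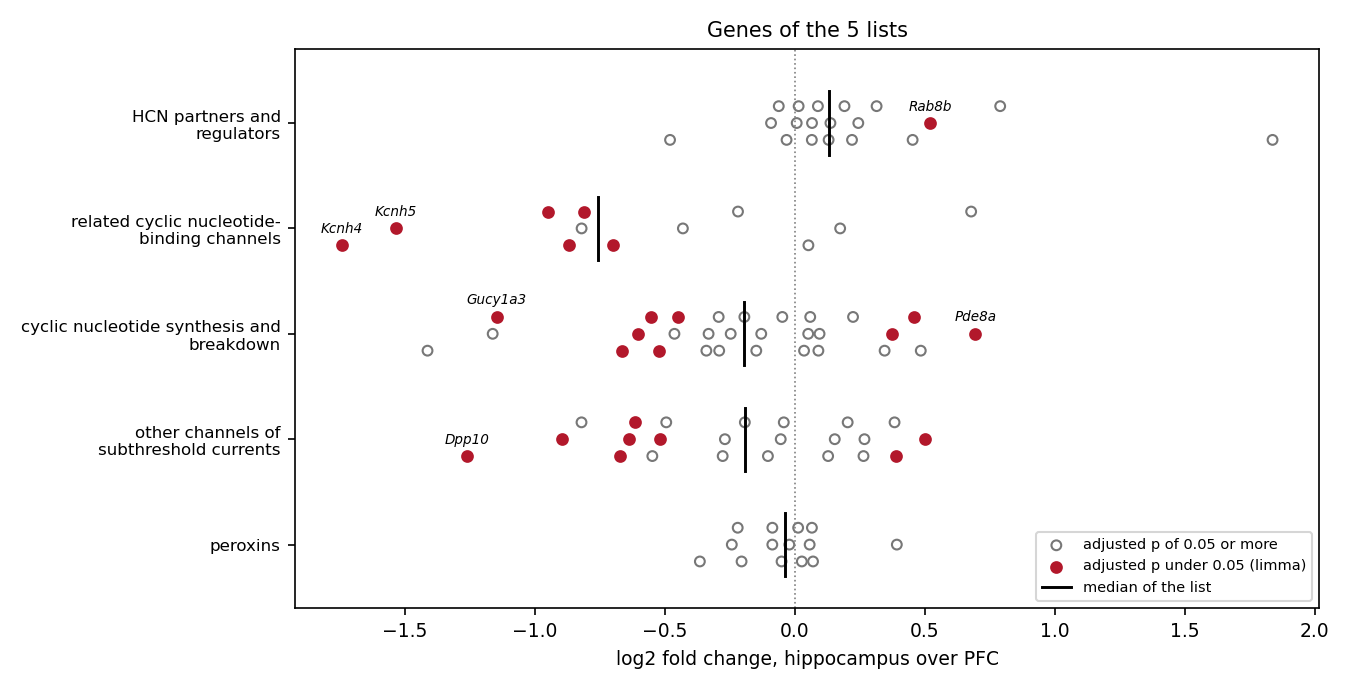
Log2 fold changes, hippocampus over PFC, of the tested genes of 5 lists: each point is 1 gene, filled where the limma adjusted p was under 0.05, and the black bar is the median of the list. The related cyclic nucleotide-binding channels lie furthest below 0 (median -0.76), with Kcnh4 (-1.74) and Kcnh5 (-1.53) at the far end, and no peroxin is filled.

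The genes whose profile over the 8 libraries was most like that of each member were found by the root mean square difference of log2(normalized count + 1), centred on each gene's mean, over the 12957 genes whose mean normalized count was at least 20. For Hcn3 they were Crip2 (0.13), Efhd2 (0.14) and Fjx1 (0.14), against a root mean square of 0.46 for the centred values of Hcn3 itself. For Pex5l they were Slc39a12 (0.051), AW047730 (0.052) and Cadm1 (0.061), against 0.24. For Hcn2 they were Dhx35 (0.10), Lemd2 (0.11) and Kcnj11 (0.11), against 0.28. For Hcn4 they were Ankfn1 (0.37), Cpne5 (0.38) and Egr2 (0.40), against 0.98. The points share the region difference and the depth of their library, and the likeness is a description of 8 libraries.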

How the data were processed

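RNA was extracted with Trizol, depleted of ribosomal RNA and sequenced from 4 hippocampus and 4 PFC pools, each of tissue from 2 mice. By the methods' total, both regions would come from the same mice. The authors used TopHat2 2.0.9 with the NCBIM37 genome for alignment, counted reads per gene with HTSeq 0.6.0 without strand and divided them by DESeq size factors, and these normalized counts were deposited (a signal per gene and library). The HTSeq overlap mode is not given in the sources used here. The authors' FPKM values (Cufflinks 2.1.1) were not used here. Read counts were recovered from the size factors, and 100% of the values came out whole (tolerance 1e-06).

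The 19789 genes whose mean normalized count was at least 1 were compared with limma 3.58.1 on log2(normalized count + 1), a pseudocount that draws low genes toward no change, two-sided, with Benjamini-Hochberg adjustment over all of them. Of these, 1124 passed an adjusted p of 0.05 and 3350 an unadjusted one. Count tests on the recovered reads used the quasi-likelihood test of edgeR 4.0.16 (1170 genes called) and DESeq2 1.42.0 (1463) in R 4.3.3. The fits were tested on simulated data. P-values measure the spread between pools. Alternatives were TMM scaling, a pseudocount of 0.5, other filters, a replicate block, leaving out each library and coding in place of exon length.

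The genes and lists were chosen with earlier results of these data known. Named genes were the 4 members, up to 4 genes per list with the largest fold change past the threshold, 6 direct partners whatever their result, and the 3 genes closest in profile to each member. Sequences came from GENCODE M1 transcripts (NCBIM37) and RefSeq promoters (GRCm38.p6).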

Additional observations from a re-analysis of the deposited data

Results flagged for a closer look

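Of 30 sets of 4 libraries examined, 2 held a library far from the others by Dixon's test at the 95% level, and chance gives about 1 in 20. Pex5l stood at 3047 normalized counts in hippocampus replicate 2, against 2185 to 2248 in the other hippocampus libraries. The gap took a share of 0.926 of the group's range. The summed level of Hcn2, Hcn3 and Hcn4 was 43.8 normalized counts per kb in hippocampus replicate 3, below 50.1 to 51.1 in the other hippocampus libraries, with a share of 0.869. Hcn2 had its lowest hippocampus value (87.2) in that library, and so had Hcn3 (57.2).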

How the results depend on the processing

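Over the alternatives run, the directions of Hcn3, Hcn4 and Pex5l held, and that of Hcn2, which was not called, turned without PFC replicate 3 (log2 fold change -0.081). Leaving out 1 library gave log2 fold changes of -0.081 to 0.24 for Hcn2, -0.87 to -0.54 for Hcn3, -1.79 to -1.26 for Hcn4 and 0.24 to 0.42 for Pex5l. Hcn3 missed the threshold under TMM scaling (-0.74, adjusted p = 0.052) and with no filter on low values (-0.75, adjusted p = 0.071). Hcn4 passed it in edgeR (-1.74) and DESeq2 (-1.73), and without PFC replicate 1. The cause was not tested.

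No label says whether same-numbered libraries share mice. Such libraries had correlations of -0.13, -0.09, 0.03 and 0.02 in their deviations from the region means. Of 4 hippocampus libraries, 0 were closest to their own number. These correlations cannot settle whether the numbers mark shared pools, because the deviations also carry the depth of each library. With the numbers as a replicate block, Hcn3 had a log2 fold change of -0.75 with an adjusted p of 0.080, and the genes past the threshold went from 1124 to 729, from 9 to 4 for cyclic nucleotide enzymes and from 8 to 5 for the other channels of subthreshold currents.

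Leaving out 1 library gave 575 to 2224 genes past the threshold in all, 2 to 13 of the cyclic nucleotide enzymes, 4 to 12 of the other channels and 1 to 3 of the partners. The extremes of the total came without PFC replicate 3 (575) and without hippocampus replicate 2 (2224). Kctd3 ranged from -0.048 to 0.16 and Lrmp from -0.24 to 0.32 on the log2 scale, both lowest without hippocampus replicate 2 and not called. Pde8a lost its call with no filter (adjusted p = 0.053), under the block (0.092) and in 6 of 8 cases with 1 library left out. Adcy5 lost it in 5 of 8, Cacna1i without PFC replicate 4 and Kcnip1 without PFC replicate 3.

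With coding in place of exon length, the Hcn2 share was 57.6% in the hippocampus, the Hcn3 share was 39.6% there and 52.0% in the PFC, and the Hcn4 share was 6.25% in the PFC. The ratio of Pex5l to the HCN sum was 19.3 for the hippocampus, against 12.1 for the PFC. Depth limits Hcn4 most, at 3 to 54 reads per library.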
